A study of Homo sapiens with 38 samples.

Results

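DUSP4, DUSP6, SPRY2, SPRY4, ETV4, ETV5, PHLDA1, FOSL1, EREG and AREG are transcribed in response to the BRAF, MEK and ERK kinase cascade. The 10 genes were taken by symbol from an RNA-seq table of 25504 genes by a rule that uses no measured value, although the list was drawn up with earlier results of these data known. RNA was measured in RKO cells, an established human colorectal cancer line that carries an activating BRAF mutation. There were 8 libraries, 1 for each combination of treatment and day. Cells were kept for 30 days or for 4 days with the vehicle DMSO alone, with NCD38, or with NCD38 coupled to a polyamide (NCD38-β2P4 or NCD38-β2PIPP). Each inhibitor was given at 2 µM according to the labels, and all cells, the controls included, were kept in 0.1% DMSO. NCD38 inhibits LSD1, a demethylase that removes methyl groups from lysine 4 of histone H3. NCD38-β2P4 and NCD38-β2PIPP, here called the P4 conjugate and the PIPP conjugate, carry NCD38 on a pyrrole-imidazole polyamide, a small molecule that binds the minor groove of DNA. The P4 polyamide was built to recognise runs of A and T, and the PIPP polyamide to recognise a CG step flanked by A or T.

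ERK is the last kinase of the cascade, and it phosphorylates transcription factors of the ETS and AP-1 families. Among the genes that these factors switch on are brakes on the cascade itself. DUSP4 and DUSP6 are phosphatases that remove phosphate from ERK, and the Sprouty proteins SPRY2 and SPRY4 act further up, on receptor signalling. ETV4 and ETV5 are ETS factors of the PEA3 group, FOSL1 is an AP-1 subunit, and PHLDA1 is a pleckstrin homology-like domain protein. EREG and AREG encode epiregulin and amphiregulin, secreted ligands of the EGF receptor. In colorectal cancers with mutant BRAF, the ERK output is held on without need of a ligand.

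FPKM is a fragment number normalised for transcript length and for sequencing depth, so it can be compared between genes. A gene was called expressed when its mean FPKM over the 8 libraries was at least 1, which 10865 genes and 7 of the 10 ERK output genes were. The depth was estimated at 12600000 to 23200000 fragments per library. Epithelial markers were partly present. KRT18 lay between 76.2 and 121 FPKM and CDX2 between 7.48 and 11.6, whereas CDH1 did not exceed 0.0642 and KRT20 and VIL1 were listed at 0. PTPRC of leukocytes, PECAM1 of endothelium and PDGFRB of fibroblasts were listed at 0 in every library. The fibroblast genes COL1A1 and COL1A2 did not exceed 0.0129 and 0.0148 FPKM. In such bulk RNA, fewer cells that express a gene and less RNA per cell cannot be told apart.

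Since both polyamides were designed around short DNA motifs, the promoters are shown first. RefSeq promoters on GRCh38.p14, from 250 bases before to 50 bases after the start, were found for 6 of the 10 genes, namely DUSP6, SPRY2, SPRY4, PHLDA1, EREG and AREG. DUSP6 (chr12:89352452-89352751, minus strand) and SPRY4 (chr5:142324198-142324497, minus strand) are printed because both were well expressed and had day differences of opposite sign, and AREG (chr4:74444886-74445185, plus strand) because it held a cAMP response element. Capitals mark motifs found on either strand: AP-1 (TGANTCA), ETS (CCGGAAG), the cAMP response element (TGACGTCA), the CArG box, 6 bases of A or T, and CG between pairs of A or T.
DUSP6: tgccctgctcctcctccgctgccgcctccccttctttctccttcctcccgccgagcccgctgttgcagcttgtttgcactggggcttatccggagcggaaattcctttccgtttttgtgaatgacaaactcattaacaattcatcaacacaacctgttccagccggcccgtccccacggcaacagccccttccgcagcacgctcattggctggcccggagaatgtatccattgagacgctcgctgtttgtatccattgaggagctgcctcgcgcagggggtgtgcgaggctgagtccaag
SPRY4: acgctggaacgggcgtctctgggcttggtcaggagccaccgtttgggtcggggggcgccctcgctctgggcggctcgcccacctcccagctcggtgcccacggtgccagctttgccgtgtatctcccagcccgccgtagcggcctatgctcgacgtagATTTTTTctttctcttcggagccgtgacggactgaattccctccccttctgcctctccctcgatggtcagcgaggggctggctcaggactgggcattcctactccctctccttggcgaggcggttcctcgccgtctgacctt
AREG: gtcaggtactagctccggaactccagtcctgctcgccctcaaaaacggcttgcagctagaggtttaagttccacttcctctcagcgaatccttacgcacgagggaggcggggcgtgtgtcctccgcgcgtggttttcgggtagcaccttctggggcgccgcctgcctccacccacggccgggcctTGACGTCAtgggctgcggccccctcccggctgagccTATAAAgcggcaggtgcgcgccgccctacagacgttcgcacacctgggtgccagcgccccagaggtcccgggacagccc

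Of the 6 motifs, the DUSP6 window held none. SPRY4 held 2 overlapping matches to 6 bases of A or T in 1 run, and AREG held 1 such match beside its cAMP response element at base 186. Of the promoters not printed, those of SPRY2 held 1, 1 and 14 such matches, overlapping ones included, EREG held 5 and PHLDA1 held 0. None of the 8 promoters of the 6 genes, SPRY2 having 3, held the AP-1, ETS or CArG letters or CG between pairs of A or T. Among 35116 promoters of the same length, AP-1 was found in 7.71%, ETS in 10.3%, the cAMP response element in 1.85%, the CArG box in 1.29%, 6 bases of A or T in 61.2% and CG between pairs of A or T in 15.9%. A match is a description of letters and not a measured binding site.

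The 7 expressed genes spanned a wide range of levels. By mean FPKM over the 8 libraries FOSL1 stood first at 476, at percentile 97.9 of expressed genes, followed by SPRY4 at 103, PHLDA1 at 61.7, ETV4 at 42.8, DUSP6 at 34.9, ETV5 at 20.6 and SPRY2 at 12.6. FOSL1 was above every other gene of the group in every library. Each other pair of neighbours in this order had overlapping ranges over the 8 libraries. DUSP4, AREG and EREG, with means of 0.433, 0.043 and 0.009 FPKM, were below the level at which a gene was called expressed.

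**Figure D1:**
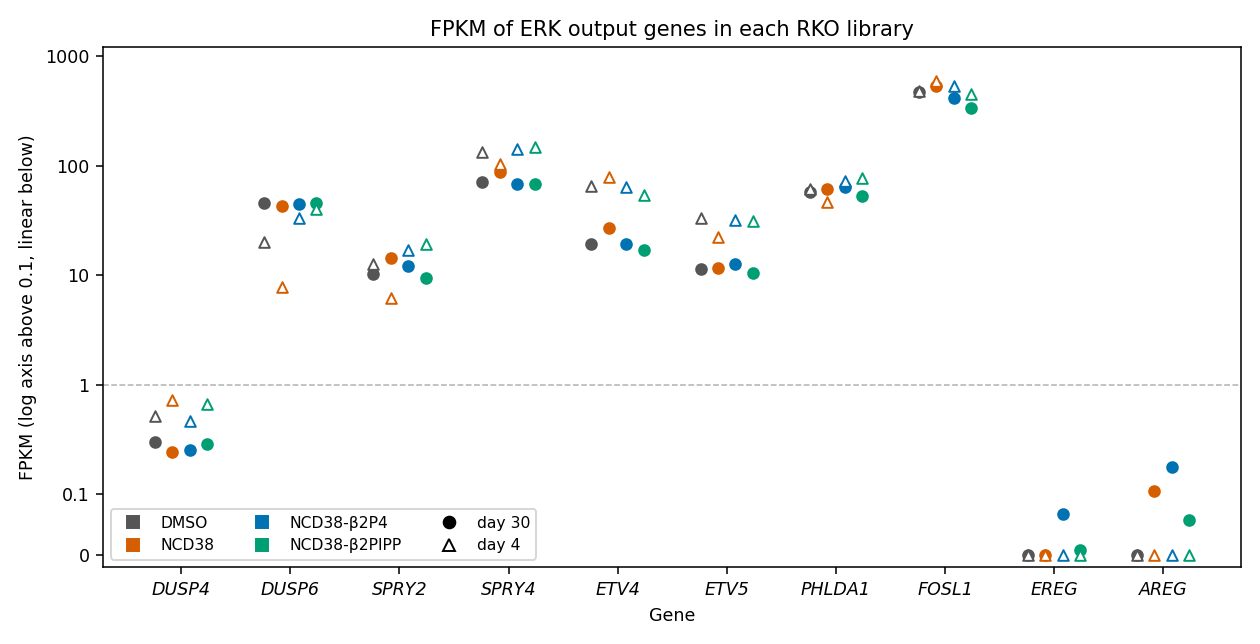
FPKM of the 10 genes in each of the 8 libraries, on an axis that is logarithmic above 0.1 and linear below; colours give the treatment, filled circles day 30 and open triangles day 4, and the dashed line marks 1 FPKM. DUSP6 lies above its day 4 values on day 30, ETV4, ETV5 and SPRY4 lie below theirs, and EREG and AREG sit at or near 0.

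The ERK phosphatase DUSP6 (chr12:89741012-89746278, GRCh37, minus strand, 3 exons) had the largest ratio of its highest to its lowest library among the 7 expressed genes. On day 30 its level was 45.7 FPKM with DMSO, 42.5 with NCD38, 44.8 with the P4 conjugate and 45.1 with the PIPP conjugate. On day 4 it was 20.1 with DMSO, 7.77 with NCD38, 33.1 with the P4 conjugate and 39.8 with the PIPP conjugate. The 4 day 30 libraries were alike and all above the day 4 libraries, whereas on day 4 the NCD38 library was far below DMSO and both conjugate libraries were above it. DUSP4, which acts on ERK in the nucleus, was low throughout. It measured 0.299, 0.244, 0.254 and 0.290 FPKM on day 30 in the same order of treatments, and 0.518, 0.722, 0.469 and 0.666 on day 4. The days did not overlap for DUSP4, but all 8 values were under 1 FPKM.

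The Sprouty genes differed in how their levels split by day. SPRY4 (chr5:141689992-141706020, minus strand, 2 exons) measured 70.4 FPKM with DMSO, 87.9 with NCD38, 67.5 with the P4 conjugate and 68.2 with the PIPP conjugate on day 30. On day 4 it measured 132.5 with DMSO, 104 with NCD38, 142 with the P4 conjugate and 148 with the PIPP conjugate. Every day 4 library was above every day 30 library, and the NCD38 libraries were the nearest pair. SPRY2 (chr13:80910111-80915261, minus strand, 2 exons) measured 10.3, 14.4, 12.0 and 9.37 FPKM on day 30 and 12.7, 6.15, 17.0 and 19.0 on day 4, in the order DMSO, NCD38, the P4 conjugate and the PIPP conjugate. For SPRY2 the days overlapped, and the NCD38 library was the highest of day 30 and the lowest of day 4.

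The ETS factors had the largest differences between the days among the 7 expressed genes. ETV4 (chr17:41605212-41656988, minus strand, 13 exons) measured 19.4 FPKM with DMSO, 26.7 with NCD38, 19.3 with the P4 conjugate and 16.9 with the PIPP conjugate on day 30. On day 4 it measured 64.6 with DMSO, 78.4 with NCD38, 63.2 with the P4 conjugate and 53.8 with the PIPP conjugate. The order was the same on both days, with NCD38 highest and the PIPP conjugate lowest. ETV5 (chr3:185764103-185828107, minus strand, 13 exons) measured 11.4, 11.7, 12.6 and 10.5 FPKM on day 30 and 32.9, 22.5, 32.2 and 31.0 on day 4, in the order DMSO, NCD38, the P4 conjugate and the PIPP conjugate. Both ETS genes were higher on day 4 in every treatment, and NCD38 on day 4 was low for ETV5 but high for ETV4.

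FOSL1, the AP-1 subunit (chr11:65659520-65668044, minus strand, 4 exons), measured 472 FPKM with DMSO, 529 with NCD38, 412 with the P4 conjugate and 332 with the PIPP conjugate on day 30. On day 4 it measured 480 with DMSO, 588 with NCD38, 536 with the P4 conjugate and 454 with the PIPP conjugate. NCD38 gave the highest and the PIPP conjugate the lowest FOSL1 level on both days, as for ETV4. PHLDA1 (chr12:76419227-76425556, minus strand, 2 exons) measured 57.4, 61.2, 64.4 and 53.2 FPKM on day 30 and 61.3, 46.5, 72.3 and 77.2 on day 4, in the order DMSO, NCD38, the P4 conjugate and the PIPP conjugate. The days overlapped for both FOSL1 and PHLDA1.

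The EGF receptor ligands were at the edge of detection. EREG (chr4:75230862-75254466, plus strand, 5 exons) was listed at 0 in 6 libraries, at 0.0669 FPKM with the P4 conjugate on day 30 and at 0.0091 with the PIPP conjugate on day 30. AREG (chr4:75310853-75320722, plus strand, 6 exons) was listed at 0 with DMSO on day 30 and in all 4 day 4 libraries, and on day 30 it measured 0.106 FPKM with NCD38, 0.179 with the P4 conjugate and 0.0583 with the PIPP conjugate. By the estimated depth the 3 AREG values came from 1.67 to 2.78 fragments each, under the 3 fragments taken as the limit of a count of 0. Only EREG with the P4 conjugate, at an estimated 3.9 fragments, was above its limit of 0.0515 FPKM. AREGB, a near-identical copy of AREG in the annotation of that time, measured 0.0666, 0.134 and 0.0731 FPKM in the same 3 day 30 libraries, and reads may have been divided between the copies. These counts are too few to set a difference between treatments.

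Each inhibitor library was then set against its same-day DMSO library, as the log2 ratio of FPKM plus 1. With 1 library per condition this ratio has no test, and the ± value given is the 95% counting half-width from the estimated depth, which covers counting error only and not the spread between cultures. For NCD38 on day 4, DUSP6 was at -1.27 ± 0.17 and was the only 1 of the 7 expressed genes past 2-fold, while 5.41% of all expressed genes were. SPRY2 followed at -0.93 ± 0.24, then ETV5 at -0.53 ± 0.10, PHLDA1 at -0.39 ± 0.06 and SPRY4 at -0.35 ± 0.04, and ETV4 and FOSL1 were higher, at 0.28 ± 0.08 and 0.29 ± 0.03. DUSP6 stood at percentile 1.2 of expressed genes in this comparison and SPRY2 at 6.1. The median of the 7 genes was -0.39 and that of all expressed genes -0.21. This comparison also moved with base composition, with a Spearman correlation of 0.59 between the ratio and the GC content across expressed genes. Genes of a GC content like that of DUSP6 had a median of -0.51, and for SPRY2 the like value was -0.47. With that median subtracted DUSP6 was at -0.76 and SPRY2 at -0.46, so that neither direction changed but DUSP6 was no longer past 2-fold, whereas PHLDA1 turned to 0.19. The part of GC content in these ratios was not tested.

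For DUSP6, SPRY2, PHLDA1 and SPRY4 the conjugates on day 4 were above DMSO, where NCD38 was below it, and for ETV4 they were below it. With the PIPP conjugate, DUSP6 was at 0.95 ± 0.10, SPRY2 at 0.55 ± 0.17, PHLDA1 at 0.33 ± 0.05 and SPRY4 at 0.16 ± 0.04, and ETV4 was at -0.26 ± 0.09. With the P4 conjugate, DUSP6 was at 0.69 ± 0.11, SPRY2 at 0.39 ± 0.18, PHLDA1 at 0.24 ± 0.05 and FOSL1 at 0.16 ± 0.04, on the same side as with NCD38. ETV4 with the P4 conjugate was close to DMSO, at -0.03 (63.2 against 64.6 FPKM). ETV5 was at -0.09 ± 0.09 with the PIPP conjugate and -0.03 ± 0.09 with the P4 conjugate, below DMSO as with NCD38. Of the 7 genes 0 were past 2-fold with either conjugate, against 11.2% of expressed genes with the PIPP conjugate and 1.91% with the P4 conjugate. The median of the 7 genes was 0.16 in both comparisons, and that of expressed genes was 0.18 with the PIPP conjugate and 0.10 with the P4 conjugate. Here the correlation of the ratio with GC content was negative, at -0.69 with the PIPP conjugate and -0.53 with the P4 conjugate. With the median of genes of similar GC content subtracted, DUSP6 remained at 0.68 with the PIPP conjugate and 0.55 with the P4 conjugate, and PHLDA1 turned to -0.32 and -0.08.

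On day 30 DUSP6 was close to DMSO with every inhibitor, and FOSL1 with the PIPP conjugate stood farthest from it. With NCD38 the 7 genes were higher in 6 cases, led by SPRY2 at 0.45 ± 0.18, ETV4 at 0.44 ± 0.13 and SPRY4 at 0.32 ± 0.05, and DUSP6 was at -0.10 ± 0.08. With the PIPP conjugate all 7 were at or below 0, from DUSP6 at -0.02 ± 0.07 to ETV4 at -0.19 ± 0.14 and FOSL1 at -0.51 ± 0.03, and FOSL1 stood at percentile 1.4 of expressed genes. With the P4 conjugate FOSL1 was at -0.20 ± 0.04, PHLDA1 at 0.16 ± 0.05 and SPRY2 at 0.20 ± 0.20. This P4 ratio had a Spearman correlation of -0.52 with GC content across expressed genes. The median of genes of similar GC content was -0.03 for FOSL1, 0.16 for PHLDA1 and 0.08 for SPRY2. Of the 7 genes 0 were past 2-fold with any inhibitor on day 30, against 1.66% of expressed genes with NCD38, 1.0% with the P4 conjugate and 1.17% with the PIPP conjugate. The medians of the 7 genes were 0.16, -0.01 and -0.11 in that order of inhibitors, and those of expressed genes 0.06, 0.06 and -0.01.

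**Figure D2:**
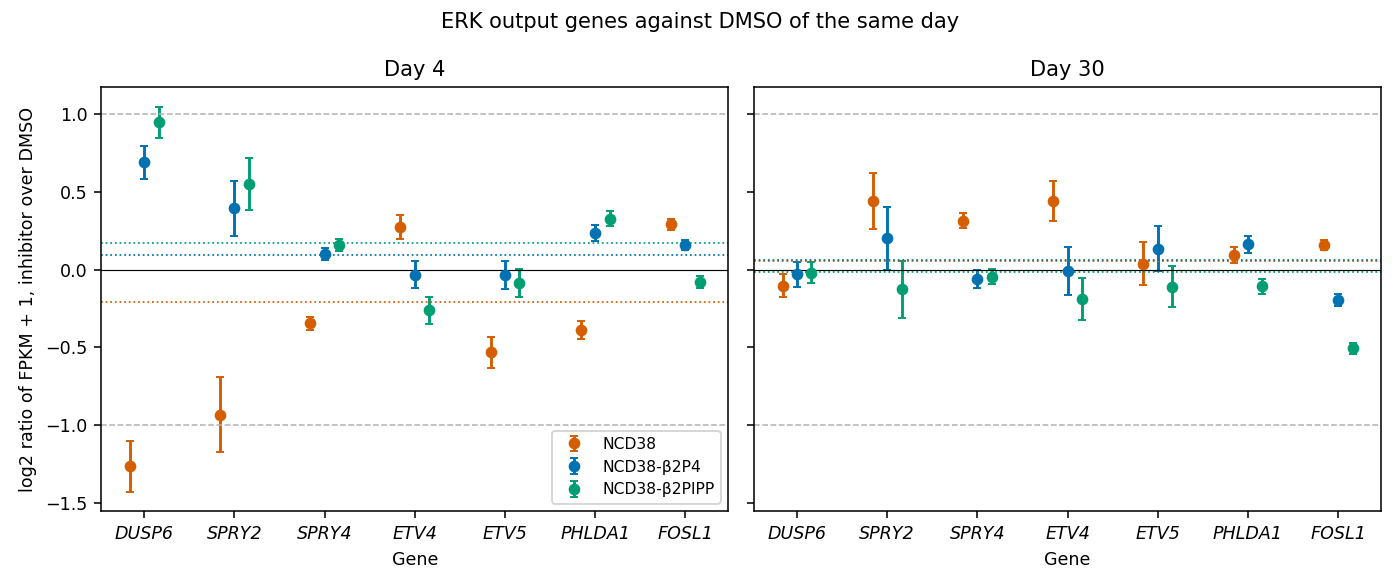
Log2 ratio of FPKM plus 1 of each inhibitor library over its same-day DMSO library, for the 7 expressed genes on day 4 (left) and day 30 (right); bars are 95% counting half-widths, dotted lines the medians of all expressed genes and dashed lines 2-fold. On day 4 DUSP6 runs from -1.27 with NCD38 to 0.95 with the PIPP conjugate, and on day 30 every gene lies between -0.51 and 0.45.

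To use both days together, log2 FPKM plus 1 was fitted with limma over the 8 libraries with treatment and day as terms, and p-values were adjusted over all 10865 expressed genes. The fit takes each treatment effect to be the same on both days. None of the 7 expressed genes passed an adjusted p of 0.05 against DMSO, where 0.0368% of expressed genes passed for NCD38, 0.0184% for the P4 conjugate and 0.0184% for the PIPP conjugate. Of 10865 expressed genes, 145 had an unadjusted limma p under 0.05 for NCD38, 32 for the P4 conjugate and 62 for the PIPP conjugate. At that level the count of the 7 genes was also 0 for each inhibitor. The value nearest to it was that of ETV4 with NCD38, a log2 difference of 0.36 ± 0.14 (SE) with an unadjusted limma p of 0.0512 and an adjusted p of 1, higher on 2 of 2 days. On day 4 its ratio of 0.28 stood beside a median of 0.20 for genes of similar GC content. On day 30 its ratio of 0.44 stood beside a median of 0.0007 for such genes. For DUSP6 the fitted differences were -0.68 with NCD38, 0.33 with the P4 conjugate and 0.47 with the PIPP conjugate, each with an SE of 0.52. The 95% interval for NCD38 ran from -1.98 to 0.61, which holds changes of more than 2-fold in the lower direction.

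The 3 inhibitors, at the same dose and times, differ by the polyamide they carry, and the 3 pairs were compared in the same fit. ETV4 was lower with the PIPP conjugate than with NCD38 by a log2 difference of -0.58 (95% interval -0.94 to -0.22), in the same direction on 2 of 2 days, with an adjusted limma p of 0.0248 over the 3 pairs but 0.53 over all expressed genes. FOSL1 was at -0.52 (-0.93 to -0.11) for the same pair, with an adjusted limma p of 0.0639 over the pairs and 0.53 over all expressed genes. DUSP6 was at 1.15 (-0.15 to 2.45), with an adjusted limma p of 0.154 over the pairs, and nearly all of that difference lay on day 4. Between the P4 conjugate and NCD38, ETV4 was at -0.38 (-0.74 to -0.02), with an adjusted limma p of 0.0644 over the pairs and 0.71 over all expressed genes, and DUSP6 was at 1.02 (-0.28 to 2.32). The day 4 ratios to DMSO had Spearman correlations with GC content of 0.59 for NCD38, -0.69 for the PIPP conjugate and -0.53 for the P4 conjugate. ETV4 and FOSL1 transcripts have a GC content of 60.6% and 58.7%. The part of GC content in the differences between inhibitors was not tested. Between the 2 conjugates no gene of the 7 had an interval that left out 0. For SPRY4 that interval was -0.58 to 0.65 and for DUSP6 -1.17 to 1.43, which leaves room for differences in either direction. Over all expressed genes none of the 7 was called for any pair, against 0.00920% of expressed genes for the P4 conjugate and NCD38, 0.0184% for the PIPP conjugate and NCD38, and 0.0276% for the conjugates. An unadjusted limma p under 0.05 was found for 352, 692 and 34 of 10865 expressed genes in the same order of pairs. The adjustment over the 3 pairs does not cover the choice of a gene among the 7.

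Day 30 was then compared with day 4 in the same fit. ETV4, ETV5 and SPRY4 were lower on day 30 and passed the test. ETV4 fell by 1.62 on the log2 scale (SE 0.10, adjusted limma p 0.000413), ETV5 fell by 1.28 (SE 0.15, adjusted limma p 0.00131) and SPRY4 fell by 0.83 (SE 0.17, adjusted limma p 0.00921), each in 4 of 4 treatments. DUSP6 was at 1.01 (SE 0.37), higher on day 30 in 4 of 4 treatments, with an adjusted limma p of 0.0568. FOSL1 was at -0.25, SPRY2 at -0.15 and PHLDA1 at -0.10, with adjusted limma p-values of 0.109, 0.735 and 0.629. Of the 7 genes 3 were therefore called, all lower, but 61.9% of all expressed genes were called between the days, 31.7% lower and 30.2% higher. The levels of DUSP6, SPRY4, ETV4 and ETV5 did not overlap between the days, which also held for 62.6% of expressed genes. Against that background these counts are not a result about the ERK output genes. With all genes above 0 in at least 1 library tested, DUSP4 was also called, having fallen by 0.32 (SE 0.06, adjusted limma p 0.0116), on values that were all under 1 FPKM. In that setting 4 of the 10 genes and 7827 of 17976 genes tested were called.

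The treatments did not give the same day difference for every gene. For ETV4 the difference was -1.69 with DMSO, -1.52 with NCD38, -1.66 with the P4 conjugate and -1.61 with the PIPP conjugate, almost the same in all. For DUSP6 it was 1.15 with DMSO, 2.31 with NCD38, 0.42 with the P4 conjugate and 0.18 with the PIPP conjugate. For SPRY2 it was -0.27 with DMSO, 1.11 with NCD38, -0.47 with the P4 conjugate and -0.95 with the PIPP conjugate, so that NCD38 stood alone above 0. PHLDA1 had the same pattern at a smaller scale, with 0.39 with NCD38 and between -0.53 and -0.09 in the other treatments. With a single library in each condition, the difference between treatments in the day effect has no test. SPRY4 was no longer called without the DMSO day 4 library (adjusted limma p 0.0505) or without the P4 conjugate day 4 library (0.0521). DUSP6 was called, at 1.29, without either PIPP conjugate library, where 6707 and 6729 of 10865 expressed genes were called. SPRY2 was called at -0.56 without either NCD38 library (adjusted limma p 0.0381 and 0.0396), where 7108 and 7102 expressed genes were called. A treatment left with 1 library adds nothing to the fitted day difference, so leaving out its day 30 or its day 4 library is not 2 separate checks.

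The day difference moved with GC content across expressed genes, with a Spearman correlation of -0.68. The fifth of expressed genes with the lowest GC content had a median day difference of 1.34 and the fifth with the highest -0.74, while the median of all was -0.02. ETV4 transcripts have a GC content of 60.6% and PHLDA1 transcripts one of 43.0%, with FOSL1 at 58.7%, SPRY4 at 52.2%, ETV5 at 48.4%, SPRY2 at 47.9% and DUSP6 at 46.5%. With the median of genes of similar GC content subtracted, ETV5 was at -1.15, ETV4 at -0.93, PHLDA1 at -0.77, SPRY4 at -0.38, SPRY2 at -0.01, FOSL1 at 0.49 and DUSP6 at 1.001. In a limma fit on values with this trend taken out, DUSP6 (1.003, adjusted limma p 0.0126) and FOSL1 (0.47, adjusted limma p 0.0295) were called higher on day 30 and PHLDA1 (-0.79, adjusted limma p 0.00216) was called lower beside ETV4 and ETV5, and SPRY4 was not called (-0.36, adjusted limma p 0.0568). That fit called 5 of the 7 genes and 5690 of the 10184 expressed genes tested, so the count is not a result about the ERK output genes. Of the epithelial markers expressed, EPCAM was higher on day 30, at 3.94 to 6.54 FPKM against 0.0922 to 0.867 on day 4, and CDX2 lower, at 7.48 to 9.18 against 10.7 to 11.6, both without overlap, whereas KRT8 and KRT18 overlapped between the days. The part of these markers in the day differences was not tested. The labels name no batch, and the length of treatment and any difference in library preparation or sequencing between the days cannot be told apart.

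**Figure D3:**
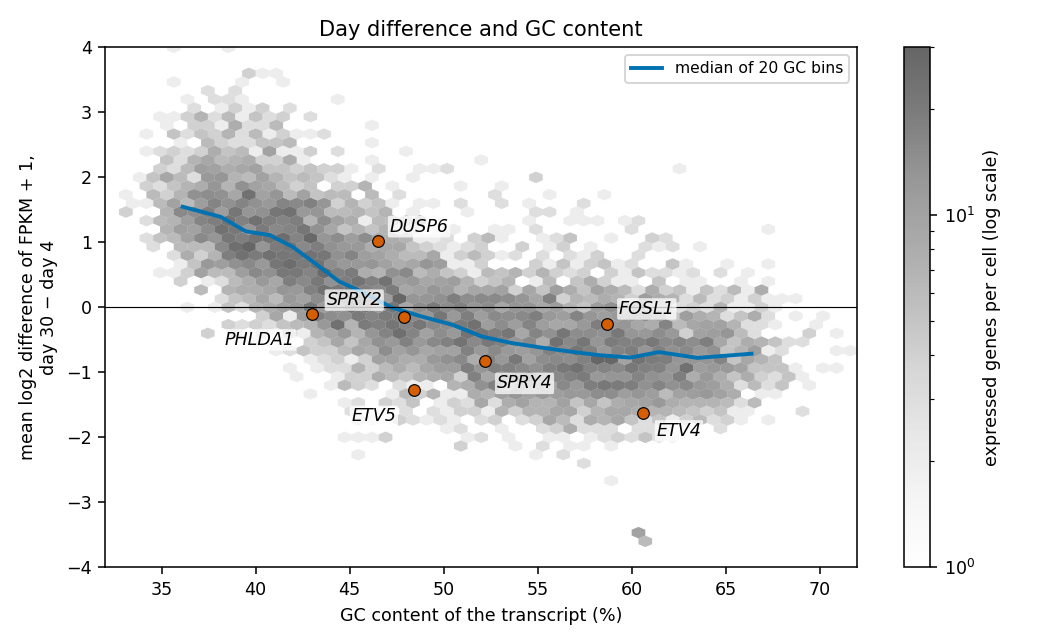
Mean day difference over the 4 treatments (log2 FPKM plus 1, day 30 minus day 4) against the GC content of the transcript, for expressed genes with a known GC content (grey cells, darker for more genes; 81 genes lie outside the axes) and the 7 ERK output genes (orange). The blue line of medians falls with GC content, ETV4, ETV5 and PHLDA1 lie below it and DUSP6 lies above it.

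Other genes of the pathway were counted from lists. Of 17 further ERK output genes 14 were expressed, and between the days 8 were called lower and 1 higher, with a median log2 difference of -0.76, beside 31.7% lower and 30.2% higher and a median of -0.02 over all expressed genes. The lowest was EGR1, an immediate early transcription factor, which fell by 1.82 (SE 0.34, adjusted limma p 0.00584) from 58.9 to 107 FPKM on day 4 to 18.8 to 40.8 on day 30. The highest was FOS, the AP-1 partner of the JUN proteins, at 0.87 (SE 0.28, adjusted limma p 0.0382), from 3.33 to 7.79 FPKM on day 4 to 8.36 to 12.9 on day 30. With the median of genes of similar GC content subtracted, the 8 genes called lower ran from -1.21 to -0.03, and FOS was at 1.32. The part of GC content in these day differences was not tested. Against DMSO of the same day, EGR1 was past 2-fold with NCD38 on day 30, at 1.08 ± 0.10 (40.8 against 18.8 FPKM), as were 1.66% of expressed genes. SPRED1, a Sprouty-related brake on the cascade, was past 2-fold with the PIPP conjugate on day 4, at 1.11 ± 0.38, as were 11.2% of expressed genes. The median over these 14 genes was 0.43 with NCD38 on day 30 and -0.28 with NCD38 on day 4, and that of expressed genes was 0.06 and -0.21.

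Upstream of these genes, of 19 genes of the cascade 17 were expressed, of which 6 were called higher and 7 lower on day 30, beside 30.2% and 31.7% of all expressed genes. BRAF itself measured 2.29 to 3.45 FPKM on day 30 and 1.35 to 5.17 on day 4, and its day difference had a 95% interval from -0.755 to 0.754 (adjusted limma p 0.999). For the MEK genes, MAP2K1 measured 14.3 to 20.4 FPKM on day 30 and 17.9 to 33.9 on day 4, and MAP2K2 84.8 to 101 and 130 to 210. MAP2K2 fell by 0.75 (SE 0.15, adjusted limma p 0.00798), whereas MAP2K1 was at -0.69 (SE 0.25, adjusted limma p 0.0542). MAPK3, which encodes ERK1, measured 12.7 to 18.7 FPKM on day 30 and 67.5 to 108 on day 4 and fell by 2.38 (SE 0.18, adjusted limma p 0.000524), a larger change than that of any of the 7 ERK output genes. With the median of genes of similar GC content subtracted, MAPK3 was at -1.69, BRAF at -1.11, MAP2K1 at -0.42 and MAP2K2 at -0.03. The part of GC content in the cascade genes was not tested. Against DMSO of the same day, 3 of the 17 were past 2-fold with the PIPP conjugate on day 4, where 11.2% of expressed genes were, and 0 in the other 5 comparisons, where 1.0% to 5.41% were.

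Of 10 ERBB ligands, receptors and the sheddase ADAM17, 5 were expressed, and 2 of these, ERBB2 and ERBB3, were called lower on day 30, as were 31.7% of all expressed genes. EGFR, the receptor of both ligands above, measured 0.638 to 1.35 FPKM on day 30 and 0.984 to 4.01 on day 4, at -0.62 (SE 0.27, adjusted limma p 0.0927). ERBB2, which has no ligand of its own, was the lowest at -1.33 (SE 0.14, adjusted limma p 0.000998), from 36.1 to 39.8 FPKM on day 4 to 12.4 to 17.3 on day 30. ADAM17, which releases the ligands from the cell surface, had the highest day difference at -0.03 (SE 0.34, adjusted limma p 0.944). It was past 2-fold with the PIPP conjugate on day 4, at 1.14 ± 0.21, as were 11.2% of expressed genes. With the median of genes of similar GC content subtracted, the 5 day differences ran from -0.96 for ADAM17 to -0.07 for HBEGF, with ERBB2 at -0.56. HBEGF was the only expressed ligand, at 2.11 to 2.30 FPKM on day 30 and 2.76 to 3.47 on day 4. ERBB3 and HBEGF were named after their values were seen.

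The likeness of the patterns was measured as the mean absolute difference of log2 FPKM plus 1 after centring each gene on its mean over the 8 libraries. SPRY2 and PHLDA1 were each other's nearest gene of the 7, at 0.20. ETV4 was nearest to ETV5 at 0.26, and ETV5 and SPRY4 were nearest to each other at 0.23. FOSL1 was nearest to PHLDA1 at 0.25, and DUSP6 was the least like any other, at 0.56 from PHLDA1. Many other genes lay nearer: among 10864 expressed genes PHLDA1 ranked 607 for SPRY2, ETV5 ranked 913 for ETV4, SPRY4 ranked 987 for ETV5 and PHLDA1 ranked 4143 for DUSP6. For each of the 7 genes, other expressed genes were nearer than the nearest of the other 6.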

How the data were processed

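RNA was measured in 8 RKO libraries made with a stranded mRNA kit. FPKM values, made by the authors with TopHat alignment and Cufflinks, were deposited as 1 table. The submitters' processing notes also name HISAT2 (2.2.1.0) and hg19 without a role, and the annotation is not given in the sources used here. FPKM holds no counts, and a 0 can be a failed estimate. The methods give another dose unit for day 4 than the labels. ChIP-seq data were not analysed here.

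Of 25594 entries, 90 with repeated names were removed. Depth was estimated from the FPKM of genes with 1 fragment and transcript lengths of GENCODE release 44 on GRCh37, which matched 21719 genes and gave GC content for 93.7% of expressed genes. Ratios used a pseudocount of 1, which makes changes of low genes smaller. limma 3.58.1 in R 4.3.3 was run on log2 FPKM plus 1 with a variance trend and 3 residual degrees of freedom, and p-values were Benjamini-Hochberg adjusted. Replicates were absent, so p-values rest on the spread left after treatment and day. The code was tested on simulated data. The text names all 10 genes, BRAF, the MEK genes, MAPK3 and EGFR, and from the lists of other ERK output genes and of ERBB genes the extremes by day and those past 2-fold. Some cascade genes are not reported here. Members and lists were chosen with earlier results of these data known. Alternatives changed the pseudocount, filter, scaling, GC trend, comparator, variance model, terms and libraries.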

Additional observations from a re-analysis of the deposited data

Results flagged for a closer look

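Some genes lay on opposite sides of the DMSO library on the 2 days, each time by more than the counting half-width. With 1 library per condition the difference between the days was not tested. All values are log2 ratios of FPKM plus 1. The P4 and PIPP conjugates are NCD38-β2P4 and NCD38-β2PIPP. With NCD38, SPRY2 was at 0.45 on day 30 and -0.93 on day 4, SPRY4 was at 0.32 and -0.35, and PHLDA1 was at 0.0923 and -0.39. With the PIPP conjugate, PHLDA1 was at -0.11 on day 30 and 0.33 on day 4. With the P4 conjugate, SPRY4 was at -0.0596 and 0.10 and FOSL1 at -0.20 and 0.16. With libraries rescaled by their median ratio, the day 4 values of SPRY4 were -0.01 with NCD38 and 0.02 with the P4 conjugate, and after the median of genes of similar GC content was subtracted those of PHLDA1 were 0.19 with NCD38 and -0.32 with the PIPP conjugate. The opposite sides for PHLDA1 therefore did not hold under the GC alternative with either inhibitor.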

How the results depend on the processing

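Of 445 values under alternatives, 345 kept their side of the threshold or moved within their spread. The number of expressed genes called between the days was 3 of 7, and it was 5 with the GC trend subtracted. Over all genes tested, 6722 of 10865 and 5690 of 10184 were called in these 2 settings. ETV4 and ETV5 were called lower under every alternative run. Leaving out 1 library at a time gave 2 to 4 of the 7 genes, where 4567 to 7108 of 10865 expressed genes were called. Beside these backgrounds the counts are not a result about the ERK output genes. With 1 library left out, the day difference of SPRY2 ran from -0.563 to 0.124 and that of PHLDA1 from -0.263 to 0.044, the lowest without either NCD38 library and the highest, turned above 0, without either PIPP conjugate library, and that of FOSL1 turned to 0.47 with the GC trend subtracted, where fewer genes were tested. The median ratio of the 7 genes changed most when the DMSO library of the other day was the comparator: it was -0.001 with NCD38, -0.219 with the P4 conjugate and -0.529 with the PIPP conjugate on day 30, and 0.315, 0.667 and 0.824 on day 4. For NCD38 on day 4 it was -0.063 after rescaling and -0.059 with the GC trend subtracted, and for the PIPP conjugate on day 4 it was -0.040 and 0.021. The cause was not tested. DUSP6 with NCD38 on day 4 was at -0.97 after rescaling. The treatment contrasts called 0 of the 7 genes under the alternatives run, where 0 to 27 of all genes tested were called. The day contrast had treatment as a block. Without that block 3 of the 7 genes were called as well, beside 7277 of 10865 expressed genes. Beyond this block, pairing by replicate number could not be tried, since the labels carry none.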
